A study of Mus musculus with 4 samples.

Results

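The genes that sense unfolded protein in the endoplasmic reticulum (ER) or phosphorylate and dephosphorylate the translation factor eIF2α were followed in ribosome-protected fragments (RPFs) of mouse leptotene/zygotene spermatocytes. They were chosen by symbol from the deposited table: *Ern1* (IRE1α), *Xbp1*, *Atf6*, *Atf6b*, the 4 eIF2α kinases *Eif2ak1*, *Eif2ak2*, *Eif2ak3* and *Eif2ak4*, and the phosphatase subunits *Ppp1r15a* and *Ppp1r15b*. All 10 were among its 11598 genes. The 4 Ribo-seq libraries came from testes of 12 dpp mice, 2 from control and 2 from *Eef1g*-cKO animals, and the submitters describe the 2 of each genotype as independent biological replicates. In *Eef1g*-cKO mice a floxed allele of *Eef1g*, which encodes the eEF1G subunit of the elongation factor complex that recharges eEF1A, was deleted in male germ cells by *Stra8*-GFPCre on a C57BL/6J background. Control animals are named wild type in the labels and control littermates by the study, which gives no alleles for them. *Stra8*-GFPCre acts from early differentiating spermatogonia onward, so deletion could begin before cells entered meiosis. Leptotene and zygotene cells, the first stages of meiotic prophase, were sorted together by FACS after Hoechst staining.

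The unfolded protein response has 3 sensors in the ER membrane. IRE1α cuts a short intron out of *Xbp1* mRNA so that it encodes the active transcription factor XBP1s, ATF6 and its relative ATF6B are released from the membrane by proteases in the Golgi, and PERK (*Eif2ak3*) phosphorylates eIF2α. The other eIF2α kinases respond to heme shortage and mitochondrial stress (HRI, *Eif2ak1*), double-stranded RNA (PKR, *Eif2ak2*) and uncharged tRNA or stalled ribosomes (GCN2, *Eif2ak4*). Phosphorylated eIF2α lowers initiation on most mRNAs and lets a few with upstream reading frames, such as *Atf4*, be translated, and GADD34 (*Ppp1r15a*) and CReP (*Ppp1r15b*) bring protein phosphatase 1 to reverse it. The activity of these proteins is set by cleavage, splicing and phosphorylation, which RPF abundance does not measure.

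RPF abundance is given in FPKM, the reads of a gene divided by its length in kilobases and by its library's total in units of 1000000 reads. The control totals were 2479504 and 1384282 reads and those of *Eef1g*-cKO 223906 and 407979, with a median per gene of 5 and 8 reads in the latter. The deleted gene, *Eef1g*, was covered by 107 and 58 reads in the controls but by 0 and 4 in the *Eef1g*-cKO libraries, which goes with the labels. Summed over 12 markers of leptotene and zygotene cells, reads per 1000000 were 3915 and 2929 in control against 7409 and 6750 in *Eef1g*-cKO, so the labelled cell type was present in every library. Markers of spermatogonia, 11 of 12 in the table, summed to 2598 and 3170 reads per 1000000 in control against 429 and 444 in *Eef1g*-cKO, and 6 of the 10 tested were called lower. Sertoli cell markers summed to between 668 and 1671 reads per 1000000, with the highest value in control 1; their median log2 fold change was -1.435, with 0 of 9 called in limma and 3 of 7 called lower in edgeR. No more than 30 reads per 1000000 fell on markers of spermatids, Leydig cells or macrophages in any library. Pachytene markers, 5 of 9 in the table, summed to 830 and 616 reads per 1000000 in control and to 1773 and 1831 in *Eef1g*-cKO. Most of these reads fell on *Hist1h1t* and *Hspa2*, and only *Hist1h1t* was called higher (log2 fold change 2.04 in limma). *Piwil1* went the other way, with 80 and 16 reads in control against 1 and 2 in *Eef1g*-cKO. Markers of peritubular cells summed to 125 and 91.7 reads per 1000000 in control against 49.1 and 56.4 in *Eef1g*-cKO. In such bulk counts fewer cells of a type cannot be told apart from less RNA per cell, nor a change in mRNA amount from one in ribosome load per mRNA.

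Because IRE1α acts on *Xbp1* mRNA, the target of that cut is shown here with 60 bases of genomic sequence on either side. It lies at chr11:5524278-5524303 (GRCm38.p6, plus strand), in the coding sequence of *Xbp1*, and 1 of the 2 curated RefSeq transcripts lacks these 26 bases. Capitals mark the intron as RefSeq places it. Other exon borders are not marked, so the flanks may hold bases that are spliced out of the mRNA.
*Xbp1*: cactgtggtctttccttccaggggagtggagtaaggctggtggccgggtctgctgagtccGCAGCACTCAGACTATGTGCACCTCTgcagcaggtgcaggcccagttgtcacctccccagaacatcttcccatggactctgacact
Losing the intron shifts the frame and lengthens the coding sequence from 804 to 1116 bases, stop codon included. The deposited table gives 1 value per gene, so fragments from the cut and uncut forms could not be told apart.

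*Ern1* and *Atf6b* were the sensor genes with higher RPF abundance in both *Eef1g*-cKO libraries than in both controls, yet none of the 10 genes was called changed by the main test. A call needed an adjusted p under 0.05 together with a log2 fold change beyond 1 in either direction in limma on log2(FPKM + 1), with Benjamini-Hochberg adjustment over the 10475 genes that had a mean of at least 1 FPKM. Of the 10 genes, 9 reached that mean and 0 were called in either direction, against 2.87% of all genes tested called higher and 4.97% called lower. By unadjusted p with the same fold, 0 of 9 were called too, against 7.32% higher and 16.3% lower over all genes, and 2 of the 9, *Ern1* and *Atf6b*, had an unadjusted p under 0.05 with a fold below that limit. edgeR on reads recovered from the table, which tested 9 of the 10 as well, called 1 higher (*Ern1*) and 0 lower, against 8.75% and 11.2% of its 8056 genes, and DESeq2 called 0. *Eef1g*-cKO lay above control in both libraries for 2 of the 10 and below it for 3, and the groups overlapped for 5. Over all genes tested these shares were 24.6% above and 37.7% below, so neither count among the 10 exceeded its share over all genes. The median log2 fold change was -0.12 over the 9 genes and -0.23 over all genes tested. For any gene taken alone, permuting 2 libraries against 2 exactly and two-sided gives no p below 0.333.

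**Figure D1:**
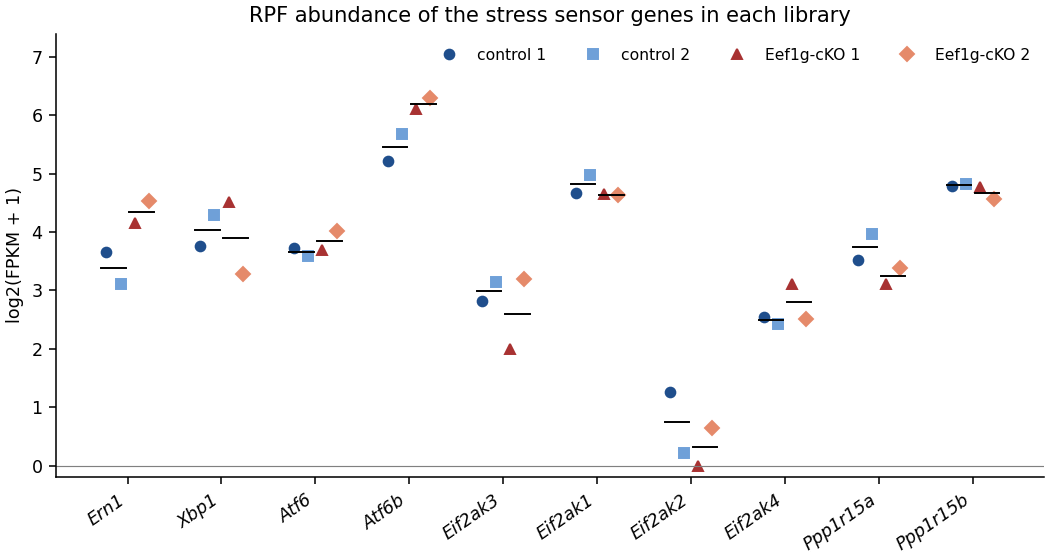
RPF abundance of the 10 genes as log2(FPKM + 1) in each of the 4 libraries, with a short line at each group's mean (n = 2). *Ern1* and *Atf6b* are the genes in which both *Eef1g*-cKO points lie above both control points, and *Eif2ak2* has the lowest point of each library.

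IRE1α, the product of *Ern1*, is both a kinase and the RNase that cuts *Xbp1*. *Ern1* (chr11:106397620-106487796, minus strand) had 11.6 and 7.63 FPKM in control and 16.8 and 22.2 FPKM in *Eef1g*-cKO, from 114, 42, 15 and 36 reads. The lower *Eef1g*-cKO library stood above the higher control, and the groups did not overlap. The log2 fold change was 0.97 ± 0.35 (SE, n = 2 per group), with a 95% interval of 0.09 to 1.84 and an adjusted p of 0.136 in limma. edgeR gave 1.10 with an adjusted p of 0.0398, and DESeq2 gave 1.09 with an adjusted p of 0.132. The call thus held in 1 of the 3 tools. Without control 2, the lower control, the log2 fold change was 0.70, and with every library thinned to the reads of the shallowest it was 0.66.

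XBP1 is the transcription factor that the IRE1α cut activates. *Xbp1* (chr11:5520641-5525993, plus strand) had 12.6 and 18.6 FPKM in control and 21.9 and 8.73 FPKM in *Eef1g*-cKO. The highest and the lowest library were both *Eef1g*-cKO, and these values rested on only 11 and 8 reads. The log2 fold change of -0.13 ± 0.49 (limma adjusted p = 0.875) had an interval from -1.34 to 1.07, which reaches beyond a change of 1 either way at this depth. Its sign turned when either *Eef1g*-cKO 2 or control 2 was left out, to 0.49 and 0.14.

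ATF6 and ATF6B are membrane-bound transcription factors of one family, of which ATF6 is the main activator of ER chaperone genes and ATF6B a weaker one. *Atf6* (chr1:170704457-170868585, minus strand) had 12.3 and 11.04 FPKM in control and 12.0 and 15.1 FPKM in *Eef1g*-cKO, and the groups overlapped. Its log2 fold change of 0.19 ± 0.32 (limma adjusted p = 0.711) had an interval of -0.60 to 0.99, inside a change of 1 either way. *Atf6b* (chr17:34647146-34655074, plus strand) had 36.1 and 50.4 FPKM in control and 67.9 and 77.4 FPKM in *Eef1g*-cKO, from 230, 179, 39 and 81 reads. Both *Eef1g*-cKO libraries stood above both controls here. The log2 fold change was 0.75 ± 0.25 with an interval of 0.13 to 1.37 and an adjusted p of 0.114 in limma, and 0.85 with an adjusted p of 0.0206 in edgeR, which fell short of a call by its fold. The change of *Atf6b* was not tested against that of *Atf6*.

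Base composition differed between the 10 genes. At the last position of codons, G and C made up 69.8% of *Atf6b* and 65.6% of *Ern1*, the 2 highest values of the 10, against 51.1% in *Atf6* and 41.4% in *Eif2ak2*. *Xbp1* and *Eif2ak3*, at 63.7% and 62.3%, came next, and both had a log2 fold change below 0. Over all codon positions, G and C made up 61.8% of *Atf6b*, 57.7% of *Xbp1*, 57.0% of *Ppp1r15a* and 54.3% of *Ern1*. On this measure *Ern1* stood below *Xbp1* and *Ppp1r15a*, whose log2 fold changes were below 0. Whether base composition caused any of these changes was not tested. With the dependence on coding GC content taken out of every library, an alternative chosen after seeing the data, *Atf6b* moved to 1.10 and was called higher (limma adjusted p = 0.0427), and *Ern1* moved to 1.10 without a call (adjusted p = 0.0996).

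**Figure D2:**
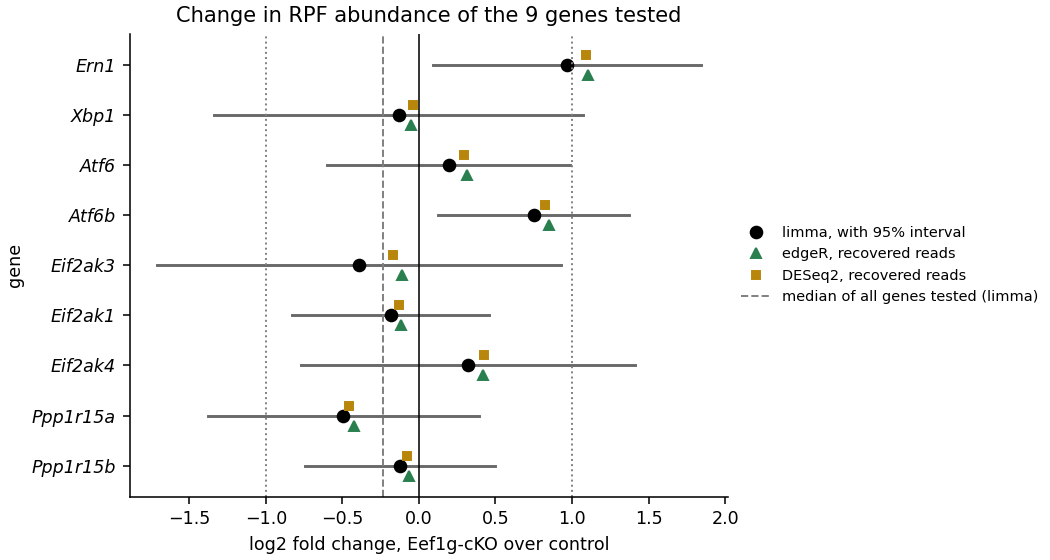
Log2 fold change of *Eef1g*-cKO over control for the 9 genes tested, from limma on log2(FPKM + 1) with its 95% interval (circles) and from edgeR (triangles) and DESeq2 (squares) on recovered reads. The limma intervals of *Ern1* and *Atf6b* lie above 0, the other 7 include it, and the dashed line at -0.23 is the median of all genes tested.

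PERK, encoded by *Eif2ak3*, is the eIF2α kinase of the ER membrane. *Eif2ak3* (chr6:70844484-70905241, plus strand) had 6.10 and 7.87 FPKM in control and 2.98 and 8.18 FPKM in *Eef1g*-cKO, and the groups overlapped. The low value of *Eef1g*-cKO 1 rested on 3 reads and that of *Eef1g*-cKO 2 on 15. The log2 fold change was -0.39 ± 0.53 (limma adjusted p = 0.646), the widest error of the 9 genes, and it was 0.21 without *Eef1g*-cKO 1 and -0.996 without *Eef1g*-cKO 2.

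Of the 3 cytosolic eIF2α kinases, HRI had the most fragments and PKR hardly any. *Eif2ak1* (HRI; chr5:143817792-143902717, plus strand) had 24.3 and 30.6 FPKM in control and 24.0 and 23.7 FPKM in *Eef1g*-cKO. The *Eef1g*-cKO libraries lay just under the lower control, with a log2 fold change of -0.18 ± 0.26 (limma adjusted p = 0.661) and an interval of -0.83 to 0.46. *Eif2ak4* (GCN2; chr2:118388583-118475234, plus strand) had 4.84 and 4.40 FPKM in control and 7.66 and 4.67 FPKM in *Eef1g*-cKO, the latter from 9 and 10 reads. The groups overlapped, and its log2 fold change was 0.32 ± 0.44 (limma adjusted p = 0.653) with an interval of -0.77 to 1.41. It was 0.0132 without *Eef1g*-cKO 1 and 0.62 without *Eef1g*-cKO 2. *Eif2ak2* (PKR; chr17:78850504-78882572, minus strand) had 15 reads in control 1, 1 in control 2, 0 in *Eef1g*-cKO 1 and 1 in *Eef1g*-cKO 2. At 1.40, 0.167, 0 and 0.567 FPKM it fell below the mean needed for the test. The 3 reads that a count of 0 still allows would be 3.10 FPKM in *Eef1g*-cKO 1, above either control, so a decrease was not detectable there. In the 3 settings that did fit it, the log2 fold change ran from -1.09 to -0.42, and it was called in none.

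GADD34 and CReP are the 2 eIF2α phosphatase subunits, the first induced by stress and the second made at all times. *Ppp1r15a* (GADD34; chr7:45522917-45526268, minus strand) had 10.5 and 14.6 FPKM in control and 7.66 and 9.46 FPKM in *Eef1g*-cKO, the latter from 4 and 9 reads. Both *Eef1g*-cKO libraries were below both controls, with a log2 fold change of -0.49 ± 0.36 (limma adjusted p = 0.388) and an interval of -1.38 to 0.39. *Ppp1r15b* (CReP; chr1:133131166-133139800, plus strand) had 26.5 and 27.1 FPKM in control and 26.4 and 22.8 FPKM in *Eef1g*-cKO. Relative to its mean, it varied least of the 10 genes between the controls, and the log2 fold change was -0.12 ± 0.25 (limma adjusted p = 0.765) with an interval of -0.74 to 0.49. The curated RefSeq leaders of *Ppp1r15a*, *Ppp1r15b* and *Eif2ak3* each hold 3 ATG triplets ahead of the coding sequence, and fragments on a leader and on the coding sequence are summed in the table. An overlap of 14 exon bases with *Aimp2* on the opposite strand of *Eif2ak1*, and of 11 with *Tulp2* opposite *Ppp1r15a*, are the exon bases that these genes share with another gene of the table.

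In order of FPKM, the control levels ran *Atf6b* (43.3 ± 10.1, SD, n = 2), *Eif2ak1* (27.4), *Ppp1r15b* (26.8), *Xbp1* (15.6), *Ppp1r15a* (12.6), *Atf6* (11.7), *Ern1* (9.60), *Eif2ak3* (6.99), *Eif2ak4* (4.62) and *Eif2ak2* (0.783). The values of *Eif2ak1* and *Ppp1r15b* overlapped, as did those of each neighbouring pair from *Xbp1* down to *Eif2ak3*. The deposited length equals the joined RefSeq exons, untranslated ends included, for 8 of the 10 genes, and the coding sequence is 26.4% of the curated *Atf6* transcript and 37.5% of that of *Ppp1r15b* but 94.9% of the longest of *Eif2ak4*. Per kilobase of coding sequence, *Ppp1r15b* led the controls with 71.7 ± 1.25 reads per kilobase per 1000000 (SD, n = 2). *Atf6b* followed at 52.2 ± 12.2, and its values overlapped with those of *Atf6* at 44.2 and *Xbp1* at 43.8 (with its unspliced frame), which overlapped with those of *Eif2ak1* at 41.2. *Ppp1r15a* (14.9), *Ern1* (13.02), *Eif2ak3* (9.40), *Eif2ak4* (4.91) and *Eif2ak2* (2.19) came in the same order as by FPKM, with no overlap between the last 3. In *Eef1g*-cKO, *Atf6b* led on this scale at 87.6 ± 8.10 and *Ern1*, at 26.5 ± 5.13, stood above *Ppp1r15a* at 10.1 ± 1.51 without overlap.

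The share that each gene took of the reads on the 10 genes does not depend on how libraries are scaled against each other. Together the 10 genes held 558 and 614 reads per 1000000 in control against 665 and 699 in *Eef1g*-cKO. *Atf6b* took 16.6% and 21.1% of these reads in control against 26.2% and 28.4% in *Eef1g*-cKO, with Wilson 95% intervals of 14.8% to 18.7%, 18.5% to 23.9%, 19.8% to 33.8% and 23.5% to 33.9%. *Ern1* took 8.24% and 4.94% in control against 10.1% and 12.6% in *Eef1g*-cKO. Its interval in control 1 (6.91% to 9.81%) overlapped those of *Eef1g*-cKO 1 (6.20% to 15.9%) and *Eef1g*-cKO 2. The *Ern1* interval of control 2 overlapped that of *Eef1g*-cKO 1 and lay below that of *Eef1g*-cKO 2. *Ppp1r15b* took 26.5% and 24.7% in control against 22.1% and 18.2% in *Eef1g*-cKO. Intervals overlapped for *Atf6b* too, between control 2 and both *Eef1g*-cKO libraries. The gene with the most reads was *Ppp1r15b* in both control libraries and *Atf6b* in both *Eef1g*-cKO libraries, though in *Eef1g*-cKO 1 by 39 reads to 33, within counting error. These intervals treat each read as an independent count and cover counting error only, not the spread between libraries. The study names no molecular identifiers, and reads copied from the same molecule would make the intervals too narrow.

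**Figure D3:**
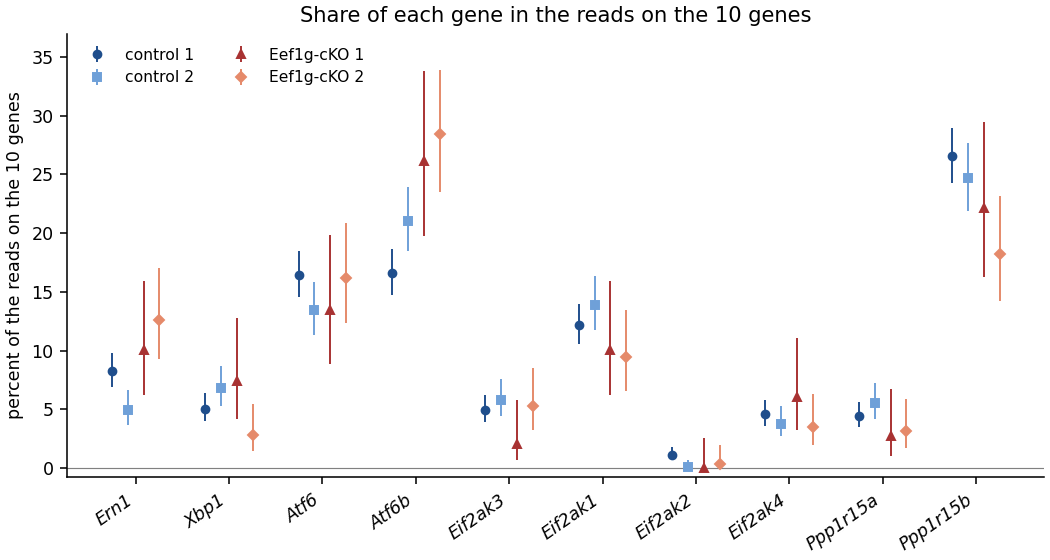
Percent of the reads on the 10 genes that fell on each gene, per library, with Wilson 95% intervals for counting error. *Atf6b* takes the largest share in both *Eef1g*-cKO libraries and *Ppp1r15b* in both controls.

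The proteins that act directly with the sensors differed widely from one another. *Hspa5*, which encodes the chaperone BiP that holds the ER sensors inactive, had 2824 and 2149 FPKM in control and 6438 and 6586 FPKM in *Eef1g*-cKO. Its log2 fold change of 1.40 ± 0.34 had an adjusted p of 0.0607 in limma, which is no call, and of 2.5e-04 in edgeR at a log2 fold change of 1.46, which makes a call. *Dnajc3*, whose product P58IPK is a BiP co-chaperone and an inhibitor of PKR and PERK, rose from 36.7 and 33.0 FPKM to 153 and 163 FPKM, a log2 fold change of 2.15 ± 0.20 (limma adjusted p = 0.0212). Neither gene's groups overlapped. Over all genes tested, 24.6% had both *Eef1g*-cKO libraries above both controls. *Mbtps1* and *Mbtps2* encode the proteases that release ATF6. *Mbtps1* had 13.5 and 15.9 FPKM in control and 10.2 and 10.1 FPKM in *Eef1g*-cKO (limma adjusted p = 0.338). *Mbtps2* had 1.26 and 2.41 FPKM against 5.58 and 5.11 FPKM (1.19 ± 0.48 on the log2 scale, limma adjusted p = 0.164). *Rtcb*, the ligase that joins the cut *Xbp1* mRNA, and *Gcn1l1*, the GCN2 activator, had log2 fold changes of -0.08 ± 0.28 and -0.09 ± 0.26, with overlapping groups.

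Downstream of the kinases, *Eif2s1*, which encodes eIF2α, had 29.7 and 32.1 FPKM in control and 51.0 and 37.3 FPKM in *Eef1g*-cKO, a log2 fold change of 0.49 ± 0.26 (limma adjusted p = 0.256). *Atf4*, the transcription factor whose translation rises when eIF2α is phosphorylated, had 32.2 and 38.9 FPKM against 51.7 and 42.5 FPKM, a log2 fold change of 0.40 ± 0.24 (limma adjusted p = 0.317). Both genes lay higher in both *Eef1g*-cKO libraries, as 24.6% of all genes tested did, and neither was called. *Ddit3*, the CHOP gene, had 7.41 and 9.12 FPKM in control and 25.6 and 5.63 FPKM in *Eef1g*-cKO from 5 and 2 reads, so the 2 *Eef1g*-cKO libraries fell on either side of the controls.

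The sensors' wider set of partners and regulators moved both ways. Of 29 such genes 28 were tested, 2 were called higher and 4 lower, against 2.87% and 4.97% of all genes tested, and their median log2 fold change was -0.08. Besides *Dnajc3* the increase was *Bak1*, encoding a cell death protein that also binds IRE1α. *Bak1* had 2 reads in each control, below the floor of 3 reads, and 11 in each *Eef1g*-cKO library. Its log2 fold change was 3.63 ± 0.49 in limma, 5.05 in edgeR and 5.18 in DESeq2. Among the 4 called lower, the 3 with the largest fall were *Bax*, the partner of *Bak1* in cell death (-2.20), *Actb*, the β-actin gene, whose monomer binds the PPP1R15 phosphatases (-1.77), and *Ppp1ca*, a catalytic subunit of that phosphatase (-1.35). *Bax* rested on 2 and 5 reads in *Eef1g*-cKO, the first below the floor of 3 reads. Of 9 genes for eIF2 and its exchange factor eIF2B, 8 were tested, with *Eif2s3y* called higher (1.01) and *Eif2b4* lower (-1.37). Of 9 genes for other ER or stress bZIP factors, 7 were tested, none was called higher and *Nfe2l2*, the NRF2 gene, was called lower (-2.26). It had 2 and 9 reads in *Eef1g*-cKO, the first below that floor too.

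Among genes that the sensors switch on, the calls for ATF6 and XBP1 targets were increases, and those for ATF4 and CHOP targets went both ways by limma as reported. Over all genes tested, 2.87% were called higher and 4.97% lower. Of 12 ATF6 targets, 6 were called higher and 0 lower, with a median log2 fold change of 1.28. The largest were *Herpud1*, an ER degradation factor, from 4.53 and 5.41 FPKM to 103 and 70.7 FPKM (3.86 ± 0.31), *Dnajc3*, and *Manf*, a secreted stress factor of the ER (2.12 ± 0.23). Of 20 XBP1 targets, 6 were called higher and 0 lower, with a median of 0.48. They were led by *Sil1*, the nucleotide exchange factor of BiP (2.38 ± 0.25), *Dnajc10*, an ER disulfide reductase (1.89 ± 0.23), and *Edem2*, which trims mannose for degradation (1.78 ± 0.21). Of the 26 ATF4 and CHOP targets, 24 were tested, with 2 called higher, *Asns*, asparagine synthetase (2.59 ± 0.29), and *Cars*, a tRNA synthetase (1.42 ± 0.24). The 2 called lower encode enzymes of serine synthesis. *Phgdh* had 34 reads in each control and 0 and 1 in *Eef1g*-cKO, too few to give its fold, and *Psph* had 130 and 69 against 4 and 9 (-1.299 ± 0.272) and was not called in edgeR (adjusted p = 0.0567). The median of the list was 0.11. All these calls are from limma's adjusted p. Which sensor acted on each listed gene was not tested, so the lists do not separate the sensors.

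**Figure D4:**
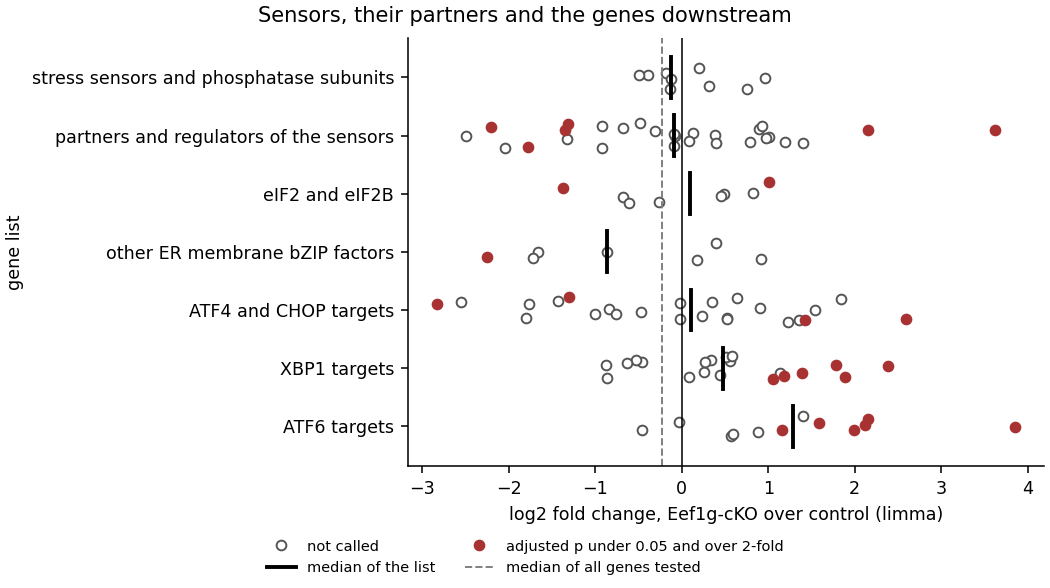
Log2 fold change of *Eef1g*-cKO over control (limma) for each tested gene of 7 lists, with called genes filled, a bar at each list's median and a dashed line at the median of all genes tested (-0.23). The medians of the ATF6 and XBP1 targets are 1.28 and 0.48, and that of the sensors and phosphatase subunits is -0.12 with no filled point.

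These lists carry 2 limits. The adjusted calls of limma went to 0 for every gene when either control was left out, when libraries were thinned to the same depth and when the prior variance had no trend, while the median of the ATF6 targets ran from 0.92 to 1.496 and that of the XBP1 targets from 0.23 to 0.69 over all settings. The medians of the ATF4 and CHOP targets (-0.14 to 0.32), the partners (-0.22 to 0.22), the eIF2 genes (-0.27 to 0.30) and the other bZIP genes (-1.66 to 0.19) took either sign. With no filter, with libraries centred, in DESeq2 and with coding length, 2 ATF4 and CHOP targets were still called higher and 0 lower. Spermatogonial markers, with a median log2 fold change of -2.11, moved with genotype. So did leptotene and zygotene markers, with a median of 0.98. Of these 12, 6 were called higher and 1 lower, against 2.87% and 4.97% of all genes tested. The sums of pachytene and of peritubular markers and the median of Sertoli cell markers differed by genotype too. The part of all these cell types in the values of the sensors and of the lists was not tested.

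The ER stress element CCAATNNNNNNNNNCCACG, where N is any base, was looked for on both strands of RefSeq promoters (GRCm38.p6) from 250 bases before to 50 after the start of transcription. Only 37 of 27025 genes with a promoter (0.137%) held one. Of the direct partners and targets searched, *Hspa5* and *Dnajc3* did, while *Atf4*, *Ddit3* and *Herpud1*, the most raised ATF6 target, did not. The matches are shown in capitals because BiP and P58IPK bind the sensors.
*Hspa5*: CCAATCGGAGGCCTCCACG
*Dnajc3*: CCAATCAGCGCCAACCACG
The promoters of 8 of the 10 sensor and phosphatase genes could be read, and none held this exact run. Nor did these hold TGACGTGG, an unfolded protein response element found in 0.714% of all genes with a promoter, or TGATGNAAN, a form of the ATF4 response element found in 4.5%. *Herpud1* did hold 1 match to the latter, TGATGCAAC on the reverse strand of its promoter, while *Hspa5*, *Dnajc3*, *Atf4* and *Ddit3* held neither.

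The 10 genes differed in how much their values moved between settings. *Ern1* stayed between 0.66 and 1.24 and *Atf6b* between 0.52 and 1.10 over the 17 settings, both always above 0, and *Atf6* stayed between 0.01 and 0.41. *Ern1* was called by adjusted p in 1 setting and by unadjusted p in 6, and *Atf6b* in 1 and 2. *Xbp1*, *Eif2ak3*, *Eif2ak4*, *Eif2ak1*, *Ppp1r15a* and *Ppp1r15b* each changed sign in at least 1 setting and were called in none. Centring each library on its median moved the median of all genes from -0.23 to -0.02 and put *Xbp1*, *Eif2ak1* and *Ppp1r15b* above 0. It also moved the adjusted calls over all genes from 301 higher and 521 lower to 521 higher and 383 lower.

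**Figure D5:**
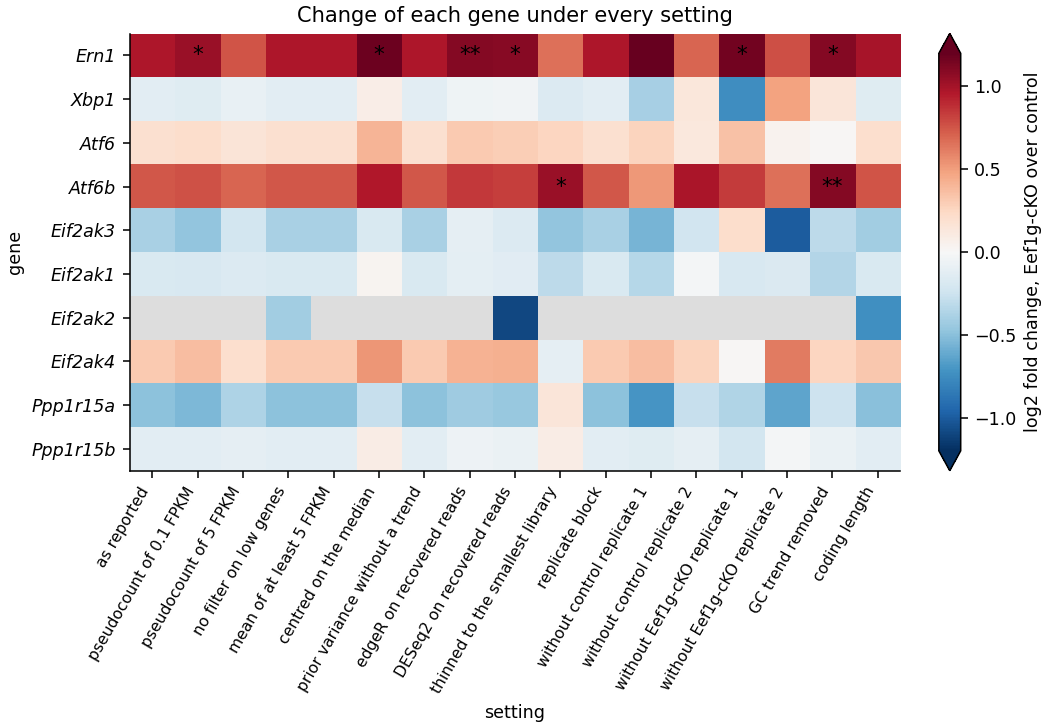
Log2 fold change of each of the 10 genes (rows) under the reported setting and 16 alternatives (columns), with 1 asterisk for a call by unadjusted p, 2 for a call by unadjusted and adjusted p, and grey where the gene was not tested. The rows of *Ern1* and *Atf6b* are above 0 throughout, while 6 other rows change sign.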

How the data were processed

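Ribosome-protected fragments were analysed as the authors deposited them, in 1 table of FPKM values and normalized counts (a signal, in which a size factor scales the counts). The authors' comparison columns, which hold fold changes, test scores and p-values, were not used. Cutadapt, Bowtie and STAR, and the builds mm10 and hg38, stand in the submitters' processing notes; the counting tool and annotation are not given in the sources used here. The gene length deposited beside the FPKM values is that of joined exons.

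Normalized counts were 100% whole multiples of a step per library (tolerance 0.001), which gave back whole reads. The test was limma 3.58.1 (R 4.3.3), run on log2(FPKM + 1) with the prior variance trended on abundance, for genes whose mean reached 1 FPKM. Recovered reads were tested with edgeR 4.0.16 and DESeq2 1.42.0. Alternatives were other pseudocounts, filters, scaling, depth, the replicate block and each library left out, plus 2 chosen after seeing the data. Coding sequences came from GENCODE and positions and leaders from RefSeq (GRCm38.p6). The floor was 3 reads and intervals are at 95%.

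The genes and lists were chosen with earlier results of these data known. Named are all 10 genes, *Eef1g*, 9 direct partners, and of each list up to 3 increases and 3 decreases with the largest change among adjusted calls. Lists of partners, targets and cell type markers were written from general knowledge.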

Additional observations from a re-analysis of the deposited data

How the results depend on the processing

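The count of the 10 genes called by adjusted p was 0 as reported and 1 in edgeR on recovered reads (*Ern1*) and with the GC trend removed (*Atf6b*), the latter chosen after seeing the data. By unadjusted p it was 0 as reported, 1 with a pseudocount of 0.1 FPKM, with libraries centred on the median, in edgeR, in DESeq2 and with libraries thinned to 222777 reads, and 2 with the GC trend removed. Leaving out each library gave 0 to 1 by unadjusted p, the 1 being *Ern1* without *Eef1g*-cKO 1, and 0 by adjusted p. Signs turned for *Xbp1* when centred (0.083), with the GC trend removed (0.14), and without control 2 (0.14) or *Eef1g*-cKO 2 (0.49). They turned for *Eif2ak1* (0.0299) and *Ppp1r15b* (0.0900) when centred, and for *Eif2ak4* (-0.11), *Ppp1r15a* (0.14) and *Ppp1r15b* (0.0931) when thinned. *Eif2ak3* turned without *Eef1g*-cKO 1 (0.21). With libraries left out, *Xbp1* ran from -0.75 to 0.49 and *Eif2ak3* from -0.996 to 0.21. The cause was not tested.

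With the replicate number as a replicate block, 0 of the 10 genes were called, as reported, while the adjusted calls over all genes went from 301 higher and 521 lower to 424 and 822. Deviations of same-numbered libraries had a correlation of -0.01. With 2 libraries per group and a median of 5 and 8 reads per gene in *Eef1g*-cKO, it cannot tell whether same-numbered libraries share more than a number. Of the genes whose sign turned, *Eif2ak3*, *Ppp1r15a*, *Xbp1* and *Eif2ak4* had 3 to 15 reads in each *Eef1g*-cKO library, *Eif2ak1* 15 and 27, and *Ppp1r15b* 33 and 52.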
